A study of Mus musculus with 6 samples.

Results

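Tiam2, Tfb1m, Synj2, Airn and Tedc2 are 5 genes of mouse chromosome 17 whose liver signal differed between Dhx32 homozygous mutant and control mice. They were chosen because their gene means, or single probe sets against the rest of the gene, differed in that comparison, so their differences are given as a description, without a test. The 5 genes were among 15045 measured ones. They carry 83 of the 185264 probe sets that have 1 gene symbol. Tiam2 has 31 of these, Synj2 32, Tedc2 11, Tfb1m 7 and Airn 2. Tedc2 is written under an older clone name in the array's annotation. Airn was found through an older name, D17Ertd663e, which the RefSeq gene table lists as a synonym of Airn, and whether its 2 probe sets read the Airn transcript itself was not tested.

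Total RNA was taken from snap-frozen liver of male mice 6 to 8 weeks old and hybridised to Affymetrix exon arrays, on which a gene is read by many short probe sets placed in its exons. The 3 mutant arrays hold RNA from mice homozygous for a mutation of the RNA helicase gene Dhx32 (Dhx32-/-). The 3 control arrays hold RNA from mice whose strain is given as wild type. The sources used here give neither the kind of mutation nor the genetic background or breeding of the controls. Nothing in the labels says outright that each array is a separate mouse, so errors and p-values measure the spread between these arrays, which may be technical. Whole liver was used, so fewer cells of a type and less RNA per cell cannot be told apart.

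The 5 genes do unrelated work. Tiam2, also called STEF, is an exchange factor that loads the small GTPase Rac with GTP, a switch for actin remodelling, and it is best known from neurons. Synj2, synaptojanin 2, removes phosphates from membrane phosphoinositides and acts in endocytosis. Tfb1m methylates the small ribosomal RNA of mitochondria, which that ribosome needs to assemble. Airn is a long non-coding RNA made from the paternal copy of an imprinted region. It runs antisense to the receptor gene Igf2r and silences Igf2r on that copy, and in the placenta Slc22a2 and Slc22a3 too. Tedc2 belongs to a complex with delta and epsilon tubulin that centrioles need in order to stay stable.

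The arrays had median log2 signals of 6.73 to 6.95. Mutant replicate 1 was the least like the rest, with correlations of 0.935 to 0.940 to the other arrays over all probe sets, where pairs of the other 5 had 0.960 to 0.973. Dhx32 itself averaged 6.66 ± 0.35 in mutants and 8.58 ± 0.29 in controls (SD, n = 3 each), and the highest mutant (7.04) lay under the lowest control (8.28). The hepatocyte markers Alb and Ttr read 13.64 to 14.05 and 13.10 to 13.39 in mutants, against 13.95 to 14.02 and 13.32 to 13.37 in controls. Values below are log2 signals, differences are mutant minus control in log2 units, and a fold is a power of 2 of such a difference. A probe set was kept where its mean in a group was 3 or more, and a gene mean averages its kept probe sets.

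At the level of gene means, 3 of the 5 genes read lower in every mutant than in every control (Tiam2, Airn and Tedc2) and 2 read higher (Tfb1m and Synj2). Over all genes, 4.32% had all mutants lower and 5.15% all mutants higher. Since the 5 were picked on this comparison, nothing is read from that contrast. None of the 5 was past an adjusted p of 0.05 in limma over all genes, a line that 0.00665% of the genes crossed. The plot of gene means shows where the arrays lie.

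**Figure D1:**
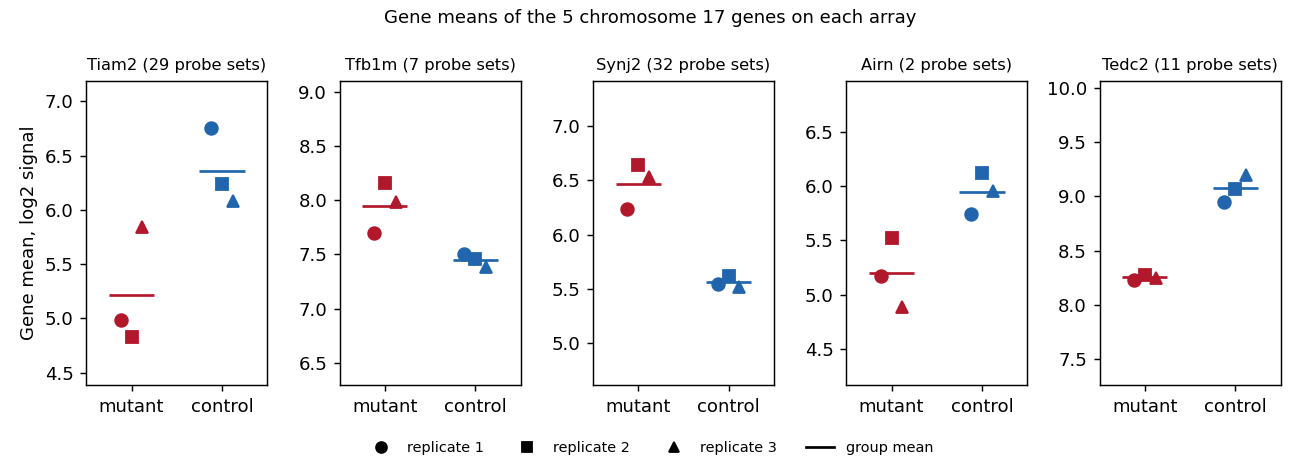
Gene means (log2 signal, vertical axis, each panel spanning the same range) of Tiam2, Tfb1m, Synj2, Airn and Tedc2 in 3 mutant (red) and 3 control (blue) arrays. Symbols mark the replicate number and lines the group means. The groups do not overlap in any panel; the Tedc2 mutants lie within 8.23 to 8.28, whereas the Tiam2 mutants spread from 4.83 to 5.85.

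Tiam2 had gene means of 4.98, 4.83 and 5.85 in mutants 1, 2 and 3, against 6.75, 6.24 and 6.08 in controls 1, 2 and 3. Mutants 1 and 2 were far below the controls and mutant 3 was just under the lowest of them. The difference was -1.14 (SE 0.29), or 2.20-fold lower. That mean hides a split among the probe sets. With a signal minimum of 5 in place of 3, which leaves out the dim probe sets, the difference was -1.86. Some probe sets passed that minimum through 1 group only. Probe sets 5127120 (4.86 in mutants, 8.21 in controls) and 4451804 (4.79 and 7.49) passed through the controls. Probe set 5474515 (5.15 and 4.25) passed through the mutants. The size of this difference is thus partly set by the filter.

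Of the 31 Tiam2 probe sets, 15 read lower in all mutants than in all controls and 2 read higher in all mutants, against 4.44% and 4.01% of all kept probe sets. Of these 15, 14 had a mean of 6 or more over the 6 arrays, a split chosen after seeing the values. On these 14 the mean signal was 5.57, 5.30 and 7.15 in mutants 1 to 3, against 8.98, 8.21 and 8.24 in controls 1 to 3. All 3 mutants lay under the controls by more than 1 log2 unit, and the mean difference was -2.47, or 5.56-fold lower. Their single differences ran from -3.35 to -1.59. Because they were picked for not overlapping, the size of their mean difference is partly set by that choice. All 17 probe sets at or above the split differed by -2.12 on average. Their level is the mean over both groups, so some reached 6 only through the controls. Probe set 5127120, for example, averaged 4.86 in mutants and 8.21 in controls. The mean difference of the 17 is thus also partly set by the choice.

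The largest difference was that of probe set 5127120, which read 5.47, 3.22 and 5.89 in mutants and 9.29, 7.81 and 7.53 in controls. Probe set 4840474 read 6.47, 6.78 and 8.26 in mutants, against 9.85, 9.45 and 9.44 in controls. The same arrays stood out on nearly all of the 14 probe sets. Mutant 3 was the highest mutant on all 14, by 1.71 over the mean of mutants 1 and 2. Control 1 was the highest control on 13 of them, by 0.75 over the mean of controls 2 and 3. Probe sets of a gene share the same RNA, so this agreement is not replication.

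The other 3 of the 17 brighter probe sets overlapped between groups and differed less. Probe set 5178768 read 6.29, 4.91 and 5.68 in mutants, against 7.98, 6.57 and 5.99 in controls, a difference of -1.22. Probe set 5270510 read 6.03 to 6.35 in mutants and 5.79 to 7.11 in controls (-0.35). Probe set 5435445 read 6.56 to 6.89 in mutants and 6.27 to 6.69 in controls (0.22). The brighter part of Tiam2 thus ran from strongly lower to level.

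The 12 kept probe sets under the split had means of 3.97, 3.97 and 4.25 in mutants, against 4.08, 3.80 and 3.58 in controls. The groups overlapped there, and the mean difference was 0.24. Among them 4857467 was lower in all mutants by a small margin, at 3.61 to 3.64 in mutants and 3.67 to 4.24 in controls (-0.38). Such dim probe sets bring little information: 4980901 averaged 2.17 in mutants and 2.18 in controls and was left out, as was the still dimmer 5185959. The kept probe set nearest to the minimum, 5155626, averaged 3.33 in mutants and 3.06 in controls.

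**Figure D2:**
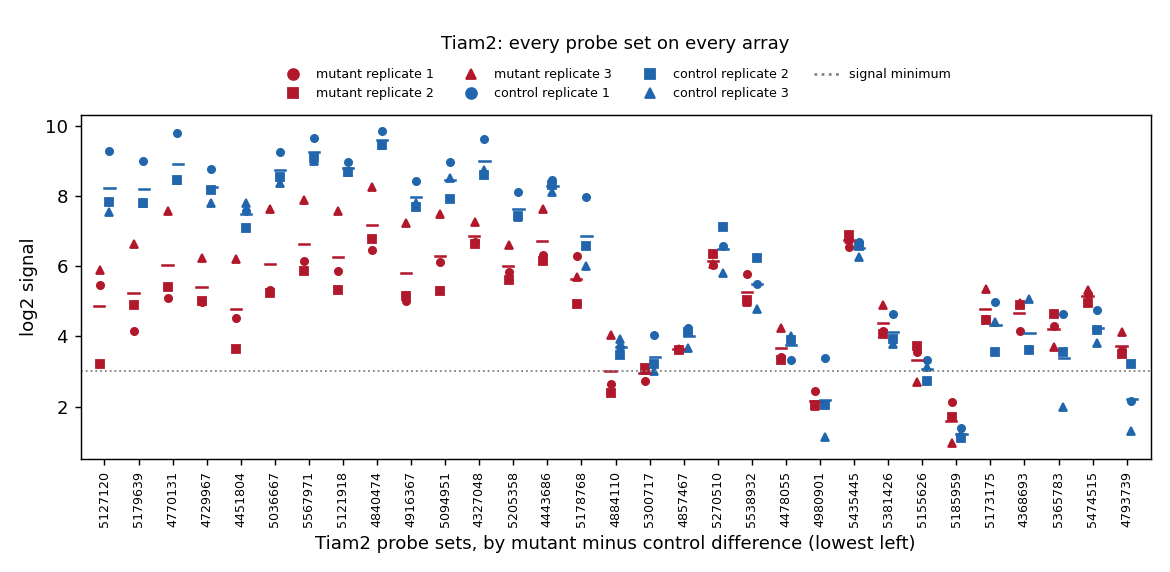
Log2 signal (vertical axis) of all 31 Tiam2 probe sets, ordered by their mutant minus control difference, in 3 mutant (red) and 3 control (blue) arrays; short lines are group means and the dotted line is the signal minimum of 3. The 14 probe sets at the left separate the groups, with controls between 7.09 and 9.85 and mutants between 3.22 and 8.26, whereas most of those on the right lie low on all arrays.

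Set against the mean of the other kept probe sets of the gene, 13 Tiam2 probe sets were lower in every mutant and 7 were higher in every mutant, of 29. Over all genes these shares were 4.09% and 4.1%. These 20 probe sets mirror each other, since by construction a low value in 1 stretch of a gene raises the relative value of the remainder. The highest relative value was that of 4793739 (2.75), which read 3.61, 3.48 and 4.11 in mutants, against 2.16, 3.20 and 1.30 in controls, so it was kept only through the mutants. Of 14310 genes tested for exon usage with the F-test of limma's diffSplice, 0.21% passed. Tiam2 was among them, and it was chosen in part for that. Tfb1m, Synj2 and Tedc2 were tested and did not pass, and Airn has too few probe sets. The positions of the probe sets along the gene were not analysed here.

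The RefSeq table gives 3 start windows of Tiam2, and a gene with several starts can make transcripts that share only some exons. The windows of 250 bases before and 50 after each start are shown because the array's probe sets separated into those that differed and those that did not. Coordinates and sequences are those of RefSeq on GRCm38.p6, and capitals mark matches to a CCAAT box (CCAAT) or a GC box (GGGCGG) on either strand.
Tiam2 start A, chr17:3396957-3397256, plus strand: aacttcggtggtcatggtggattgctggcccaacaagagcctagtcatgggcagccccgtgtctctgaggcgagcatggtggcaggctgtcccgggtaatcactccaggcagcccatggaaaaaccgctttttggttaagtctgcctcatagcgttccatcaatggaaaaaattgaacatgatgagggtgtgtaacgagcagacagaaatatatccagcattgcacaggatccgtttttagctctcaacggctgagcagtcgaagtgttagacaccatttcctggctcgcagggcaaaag
Tiam2 start B, chr17:3482065-3482364, plus strand: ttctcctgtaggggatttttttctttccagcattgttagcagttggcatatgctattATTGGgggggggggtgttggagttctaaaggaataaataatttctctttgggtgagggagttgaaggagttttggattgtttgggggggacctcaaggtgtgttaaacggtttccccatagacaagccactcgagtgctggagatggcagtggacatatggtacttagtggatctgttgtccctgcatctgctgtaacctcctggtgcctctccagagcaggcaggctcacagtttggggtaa
Tiam2 start C, chr17:3483240-3483539, plus strand: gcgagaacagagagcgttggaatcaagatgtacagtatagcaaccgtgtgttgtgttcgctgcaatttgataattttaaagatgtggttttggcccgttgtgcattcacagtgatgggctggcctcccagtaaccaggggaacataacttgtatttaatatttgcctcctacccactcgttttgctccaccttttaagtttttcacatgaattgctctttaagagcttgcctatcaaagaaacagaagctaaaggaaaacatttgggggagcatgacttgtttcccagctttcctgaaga
Tfb1m start, chr17:3557706-3558005, minus strand: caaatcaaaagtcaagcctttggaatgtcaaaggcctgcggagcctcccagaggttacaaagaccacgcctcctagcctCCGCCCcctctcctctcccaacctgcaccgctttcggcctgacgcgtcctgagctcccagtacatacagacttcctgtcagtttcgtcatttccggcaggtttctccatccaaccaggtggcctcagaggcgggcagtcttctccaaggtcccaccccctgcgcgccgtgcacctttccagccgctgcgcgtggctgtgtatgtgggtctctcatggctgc

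The Tiam2 window B held a CCAAT box and the Tfb1m window a GC box. Of 32851 promoter windows, 37.4% held a CCAAT box and 35.7% a GC box. No Tiam2 or Tfb1m window held the letters of a TATA box (TATAAA, in 13.6% of all windows), an E-box (CACGTG, 7.2%) or the ETS core (CCGGAAG, 8.9%). The Tfb1m window had 16 CG dinucleotides and the Tiam2 windows 11, 2 and 6 in the order above, against a median of 7 over all windows. Tiam2 runs on the plus strand and Tfb1m on the minus strand, and in the RefSeq table the ends of the 2 genes overlap. Whether a probe set there reads both transcripts was not tested.

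Tfb1m, the next measured gene after Tiam2, differed in the opposite direction. Its gene mean was 7.69, 8.16 and 7.99 in mutants 1 to 3, against 7.50, 7.46 and 7.39 in controls. The controls lay close together and mutant 1 was nearest to them. The difference was 0.50 (SE 0.16), or 1.41-fold higher. The means of all 7 probe sets were higher in mutants, by 0.27 to 0.80, and 3 of them kept the groups apart, as did 4.01% of all kept probe sets in that direction. Probe set 5340073 read 7.35, 7.62 and 7.63 in mutants and 7.07, 6.50 and 6.62 in controls. No Tfb1m probe set departed from the rest of the gene without overlap. Without mutant replicate 1 the difference was 0.62.

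Synj2 lies further along the chromosome, and its window is shown because it has 1 start region with nearly all probe sets higher in mutants. It held none of the 5 motifs searched, and RefSeq gives another start close by.
Synj2 start, chr17:5975330-5975629, plus strand: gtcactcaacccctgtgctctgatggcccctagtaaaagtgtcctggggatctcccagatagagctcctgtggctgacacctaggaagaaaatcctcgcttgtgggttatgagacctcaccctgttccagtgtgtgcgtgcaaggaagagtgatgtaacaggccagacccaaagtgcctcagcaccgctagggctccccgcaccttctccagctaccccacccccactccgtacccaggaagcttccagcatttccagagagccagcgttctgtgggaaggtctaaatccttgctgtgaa

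Synj2 had gene means of 6.24, 6.64 and 6.53 in mutants 1 to 3, against 5.55, 5.62 and 5.52 in controls. The controls covered a narrow range and every mutant was above it. The difference was 0.91 (SE 0.16), or 1.88-fold higher. Of the 32 probe sets, 31 averaged higher in mutants (median over the 32, 0.90), and 17 kept every mutant above every control. Of all kept probe sets, 4.01% did so. The gene difference was 1.02 without mutant replicate 1 and 0.82 without mutant replicate 2.

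The differences of single Synj2 probe sets ran from -0.06 to 1.88. Probe set 5380905 read 5.54, 6.54 and 6.84 in mutants, against 4.56, 4.54 and 4.17 in controls. Probe set 5114060 read 6.83, 6.61 and 7.09 in mutants, against 5.41, 4.96 and 5.31 in controls. At the other end, probe set 4785916 read 5.04, 5.85 and 5.46 in mutants, against 6.06, 5.20 and 5.28 in controls, and the groups overlapped. Relative to the rest of the gene, 3 of the 32 probe sets were higher and 2 were lower in every mutant, where all genes gave 4.1% and 4.09%. The plot of Synj2 shows a graded series of differences.

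**Figure D3:**
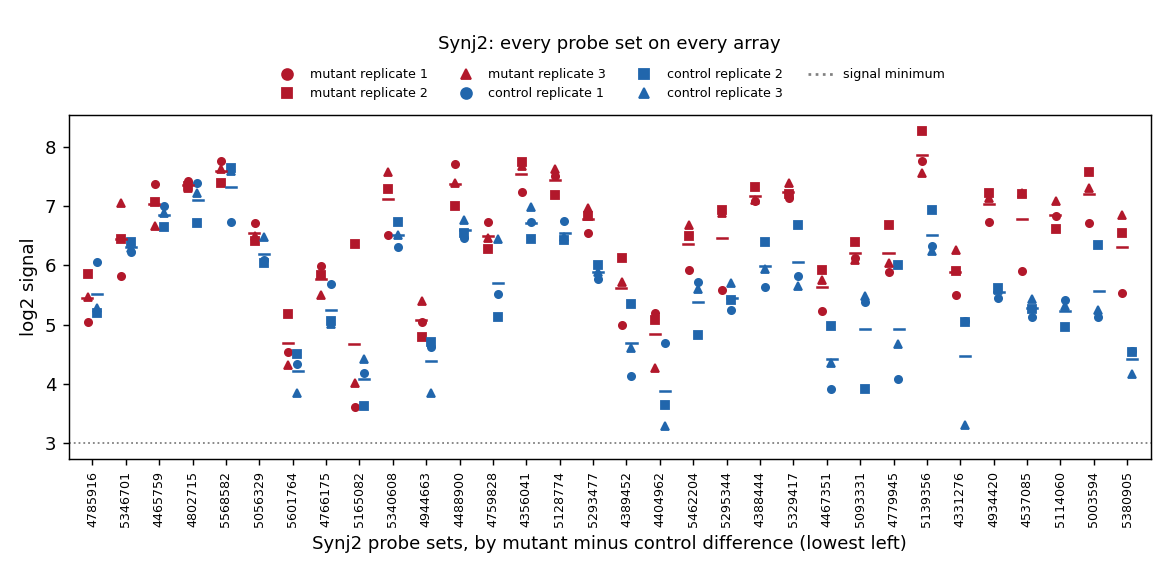
Log2 signal (vertical axis) of all 32 Synj2 probe sets, ordered by their mutant minus control difference, in 3 mutant (red) and 3 control (blue) arrays; short lines are group means and the dotted line is the signal minimum of 3. In 17 probe sets every mutant lies above every control, and the lowest difference is -0.06.

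Airn rests on 2 probe sets only. Its gene mean was 5.17, 5.52 and 4.89 in mutants 1 to 3, against 5.74, 6.12 and 5.96 in controls, a difference of -0.75 (SE 0.20) or 1.68-fold lower. Its start window, not shown, held the letters of a TATA box and of a GC box (in 13.6% and 35.7% of all windows). The 2 probe sets did not order the mutants alike. Probe set 5145442 read 4.73, 5.53 and 5.87 in mutants, against 5.97, 6.43 and 6.23 in controls. Probe set 5596644 read 5.62, 5.51 and 3.91 in mutants, against 5.51, 5.81 and 5.69 in controls. In 5596644, mutants 1 and 2 lay at the level of the controls and its mean difference of -0.66 rested on mutant 3. Without mutant replicate 3 the Airn difference was -0.59, and without mutant replicate 2 it was -0.91.

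Igf2r, on whose opposite strand Airn lies, did not pass over all genes in limma. Neither did Slc22a2 and Slc22a3, which Airn silences in the placenta. Only 0.00665% of all genes passed, so this does not tell whether silencing in liver changed. Igf2r, the receptor that carries lysosomal enzymes and clears insulin-like growth factor 2, read 8.30, 8.73 and 9.16 in mutants, against 8.56, 9.04 and 9.03 in controls (difference -0.15, SE 0.24, adjusted p = 0.953 in limma). The groups overlapped, and 1 of its 44 probe sets was lower in all mutants, as were 4.44% of all kept probe sets. The cation transporter genes Slc22a2 and Slc22a3 differed by 0.12 (SE 0.19) and -0.10 (SE 0.34). Of the 5 measured genes of the list around Igf2r and Airn, none passed over all genes in limma and none reached an unadjusted p of 0.05, and their median difference was -0.03, against -0.01 over all genes.

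Tedc2 showed the smallest spread of the 5 genes in mutants. Its gene mean was 8.23, 8.28 and 8.25 in mutants 1 to 3, against 8.95, 9.07 and 9.20 in controls. The mutants were nearly level and all controls lay above them. The difference was -0.82 (SE 0.14), or 1.77-fold lower. All 11 probe sets had a lower mean in mutants, and 10 of them kept every mutant under every control, as did 4.44% of all kept probe sets.

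The differences of the Tedc2 probe sets ran from -1.01 to -0.29. Probe set 4806197 read 8.09, 8.14 and 8.11 in mutants, against 8.96, 9.06 and 9.36 in controls. Probe set 4535286 read 9.02, 8.83 and 8.54 in mutants, against 9.77, 9.80 and 9.71 in controls. The exception was 5045106, at 9.18, 9.23 and 9.32 in mutants and 9.21, 9.51 and 9.87 in controls. Relative to the rest of the gene its difference was 0.59, higher in every mutant, and that of 4806197 was -0.21. The Tedc2 start window is shown because nearly all probe sets of the gene differed alike. It held the letters of a GC box and of a CCAAT box (in 35.7% and 37.4% of all windows). The CCAAT match lies among the last bases printed, and whether either match acts was not tested.
Tedc2 start, chr17:24220802-24221101, minus strand: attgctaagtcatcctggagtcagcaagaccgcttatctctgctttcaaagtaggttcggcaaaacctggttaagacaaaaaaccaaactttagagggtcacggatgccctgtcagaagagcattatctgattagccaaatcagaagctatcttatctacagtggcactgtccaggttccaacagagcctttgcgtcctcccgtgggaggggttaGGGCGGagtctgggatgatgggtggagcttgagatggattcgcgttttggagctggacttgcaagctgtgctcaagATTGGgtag

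**Figure D4:**
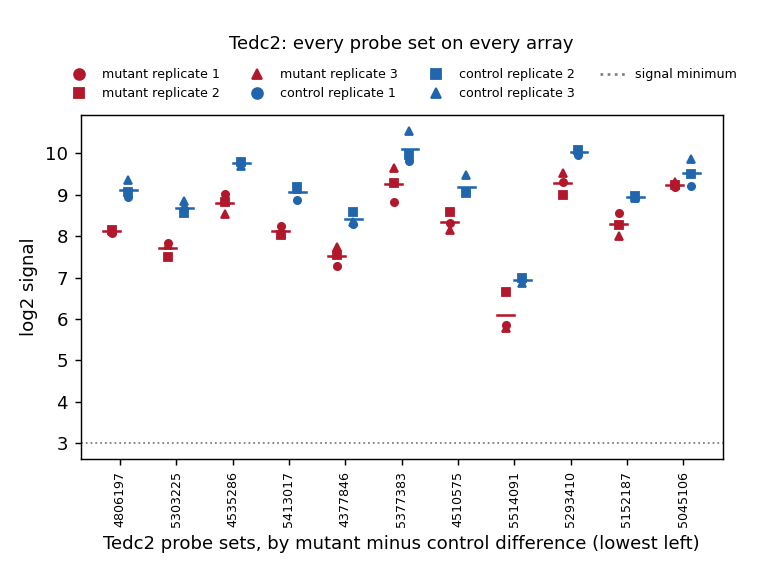
Log2 signal (vertical axis) of the 11 Tedc2 probe sets, ordered by their mutant minus control difference, in 3 mutant (red) and 3 control (blue) arrays; short lines are group means and the dotted line is the signal minimum of 3. In 10 probe sets all mutants lie under all controls, with differences near that of the gene mean (-0.82).

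The genes around these 5 on chromosome 17 were taken by their order, with the 5 themselves left out. Because the 5 were set apart on their values, counts among the genes left are partly set by that choice. None of the 5 had passed over all genes in limma. Of the 56 nearest measured genes, up to 10 on each side of each of the 5 in chromosome order, 0 passed over all genes in limma. At an unadjusted p under 0.05 there were 2 (3.57%, where all genes gave 4.21%). Of the 56, 29 were higher and 27 lower in mutants. Their median difference was 0.00, and the groups were apart in 5 of them (8.93%, against 9.47% of all genes). Of the 31 within 5 steps, none passed for exon usage, and the smallest adjusted p of the F-test was 0.138, that of Ldhal6b, a lactate dehydrogenase-like gene. In the 440 kept probe sets of these 31 genes, 20 were higher and 11 were lower in all mutants (7.05% together, where all kept probe sets gave 4.01% higher and 4.44% lower).

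Next to Tiam2 and Tfb1m, the measured neighbour Scaf8, which binds RNA polymerase II, read 7.43 to 8.11 in mutants and 7.95 to 8.13 in controls (difference -0.17, SE 0.20). Nox3, an oxidase subunit of the inner ear, differed by 0.01 (SE 0.16). Tmem242, which helps to assemble the mitochondrial ATP synthase, read 9.27, 9.34 and 8.85 in mutants, against 8.83, 8.49 and 8.50 in controls. The lowest mutant was only just above the highest control. In 4 of its 7 probe sets all mutants were higher, as in 4.01% of all kept probe sets. The Tmem242 difference of 0.54 (SE 0.19) was near the 0.50 of Tfb1m and, like it, did not pass (adjusted p = 0.943 in limma). Zdhhc14, a palmitoyltransferase gene, and Snx9, a sorting nexin of endocytosis, both between Tmem242 and Synj2, differed by -0.06 (SE 0.15) and -0.06 (SE 0.21).

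On the other side of Synj2, Serac1, which is needed for phosphatidylglycerol remodelling and whose annotated span overlaps that of Synj2, read 6.04 to 6.32 in mutants and 6.20 to 6.31 in controls (difference -0.08, SE 0.15). Gtf2h5, a subunit of the repair and transcription factor TFIIH, differed by 0.13 (SE 0.16). Tulp4, Ezr and Tagap differed by -0.06 (SE 0.16), 0.09 (SE 0.19) and 0.09 (SE 0.16). Around Tedc2, 13 of the 20 nearest measured genes were higher and 7 lower in mutants (median 0.15, against -0.01 over all genes). The groups were apart in 3 of them, all higher (15%, against 9.47% of all genes). The neighbours on either side were Ntn3, a netrin, at -0.12 (SE 0.14) and Ccnf, which encodes cyclin F, at -0.33 (SE 0.26). Ccnf read 6.77, 7.12 and 7.84 in mutants, against 7.48, 7.74 and 7.52 in controls, and the groups overlapped. Amdhd2 and Eci1 read higher in every mutant by 0.19 (SE 0.14) and 0.23 (SE 0.15), without passing (adjusted p = 0.943 in limma for each).

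**Figure D5:**
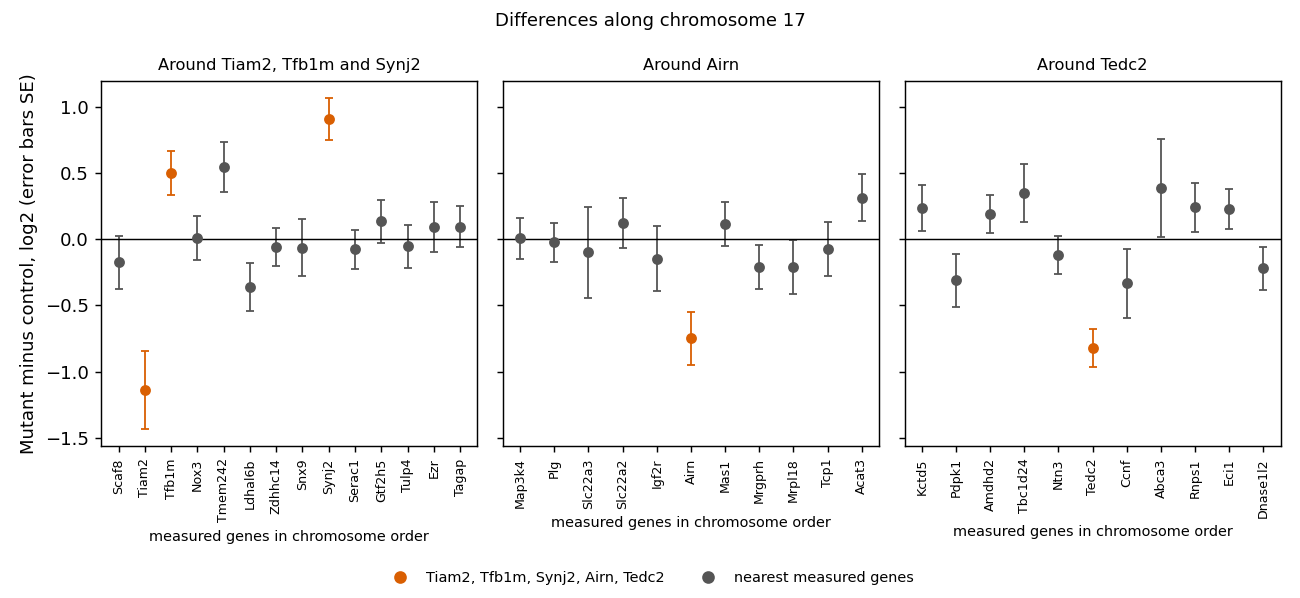
Mutant minus control differences of gene means (log2, vertical axis; error bars are SE from limma, n = 3 mutant and 3 control arrays) for the 5 genes (orange) and up to 5 measured genes on each side (grey), in chromosome order and not to distance. Of the grey genes Tmem242 has the highest difference (0.54) and Ldhal6b the lowest (-0.36).

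Near relatives of Tiam2, Tfb1m and Tedc2 elsewhere in the genome, named after their values were seen, differed little. Synj1, the relative of Synj2, was not among the measured genes. Tiam1, the other gene of the Tiam pair, read 5.26 to 5.60 in mutants and 5.15 to 5.39 in controls (difference 0.13, SE 0.16). Tfb2m, the transcription factor related to Tfb1m, differed by 0.10 (SE 0.21). Tedc1, the partner of Tedc2, differed by 0.15 (SE 0.17).

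Lists of genes that act with these 5 were counted in the same fit, and no member of any of them passed over all genes in limma. Of 21 measured Rac activators and Rac genes, 10 were higher and 11 lower (median -0.02), with Vav3, an exchange factor, at -0.27 (SE 0.14) and Rac1 at -0.35 (SE 0.21); none reached an unadjusted p under 0.05. Of 17 Rac effectors and genes of actin branching, 5 were higher and 12 lower (median -0.09), with Arpc1b, a subunit of the Arp complex that branches actin, at -0.38 (SE 0.26), and none reached an unadjusted p under 0.05. Of 23 phosphoinositide phosphatases, 4 were higher and 19 lower (median -0.12), and 1 (4.35%) reached an unadjusted p under 0.05, where all genes gave 4.21%. The mean level of that list stood at -0.37, -0.08 and 0.10 from the control mean in mutants 1, 2 and 3, so the lower values were mostly those of mutant 1, the array least like the rest. The 1 gene was Inpp4a, which acts on phosphatidylinositol bisphosphate, at -0.59 (SE 0.25), with 8.21 to 8.59 in mutants and 8.39 to 9.28 in controls.

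Of 20 partners of synaptojanins in endocytosis, 9 were higher and 11 lower (median -0.07), with the synaptojanin 2 binding protein gene Synj2bp at -0.38 (SE 0.27) and the clathrin heavy chain gene Cltc at -0.19 (SE 0.15). Of 25 genes of mitochondrial transcription and ribosomal RNA modification, 12 were higher and 13 lower (median -0.02), with Mterf2 at -0.50 (SE 0.24). Of 19 other imprinted genes, 8 were higher and 11 lower (median -0.02), with Phlda2 at 0.33 (SE 0.20). Of 23 genes of centriole assembly, 5 were higher and 18 lower (median -0.09), with Cep192, which recruits centrosome proteins, at -0.42 (SE 0.22). The centriole list stood at -0.26, -0.04 and 0.04 from the control mean in mutants 1, 2 and 3. None of these 4 lists held a gene at an unadjusted p under 0.05. The median over all genes was -0.01.

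Levels of cell type markers varied among the arrays beside these genes. Over 10 stellate cell markers the mean signal was 7.36 to 8.09 in mutants, with mutant 1 lowest, and 7.94 to 8.23 in controls. Over 10 sinusoidal endothelial markers it was 8.28 to 9.16 in mutants, with mutant 2 lowest, and 8.60 to 9.15 in controls. Over 10 Kupffer cell and macrophage markers it was 7.82 to 8.67 in mutants and 7.78 to 8.28 in controls. Over the 7 measured of 10 neutrophil markers it was 4.86 to 5.75 in mutants, with mutant 1 highest, and 4.70 to 5.03 in controls. Over the 6 measured of 8 bile duct markers it was 5.90 to 6.47 in mutants and 5.84 to 6.07 in controls. Over 6 measured of 10 hepatocyte markers it was 12.92 to 13.12 in mutants and 12.95 to 13.04 in controls, and over 8 of 10 lymphocyte markers 5.31 to 5.44 in mutants and 5.35 to 5.46 in controls. The ranges of these means overlapped for every list.

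Single markers stood apart more than the means. None passed over all genes in limma. Of the 7 neutrophil markers, 2 (28.6%, against 4.21% of all genes) reached an unadjusted p under 0.05. Higher in all mutants were 3 (42.9%, against 5.15% of all genes). These were Prtn3, Ngp and Ltf, genes of neutrophil granules. Prtn3 read 7.65, 7.10 and 6.21 in mutants, against 5.99, 5.75 and 6.07 in controls (difference 1.05, SE 0.33, adjusted p = 0.943 in limma). Ngp differed by 0.59 (SE 0.23) and Ltf by 0.22 (SE 0.14). In the rest of that list the groups overlapped. S100a8 (0.70, SE 0.55) and S100a9 (0.46, SE 0.30) averaged higher in mutants, Camp (-0.35, SE 0.20) and Mpo (-0.07, SE 0.18) lower. Of the 10 stellate cell markers, 8 averaged lower and 2 higher in mutants (median -0.15). Among them 2 (20.0%, against 4.21% of all genes) reached an unadjusted p under 0.05, both lower. Dcn, a matrix proteoglycan, read 9.97, 11.14 and 11.34 in mutants, against 11.40, 11.72 and 11.78 in controls (-0.81, SE 0.34). Reln differed by -0.93 (SE 0.40), and its groups overlapped. The 2 higher ones were Des (0.13, SE 0.15) and Col1a1 (0.04, SE 0.16). Of the 8 lymphocyte markers, 3 averaged higher and 5 lower in mutants (median -0.06). Among them 1 (12.5%, against 4.21% of all genes) reached an unadjusted p under 0.05, the granzyme gene Gzma at 0.45 (SE 0.16). None of the hepatocyte, Kupffer cell, endothelial or bile duct markers did. Marker genes with values were named after these were seen, and their part in the differences of the 5 genes was not tested.

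The genes whose means followed each of the 5 most closely over the 6 arrays were found by Pearson's r among 15045 genes, passing over predicted ones. The 6 points are the same arrays in 2 groups that differ, so these values describe likeness only. Tiam2 was most like Irak1bp1 (r = 0.995), Ggh (0.994) and Lipk (0.989). Ggh, which trims folates, read 6.61, 6.50 and 7.22 in mutants, against 7.79, 7.58 and 7.47 in controls, with the same order of arrays as Tiam2. Tfb1m and Synj2 shared 2 of their 3 closest genes, Slc1a7 and Mpdz. Mpdz, a scaffold of cell junctions, read 7.59, 8.19 and 8.01 in mutants and 7.10, 7.24 and 7.03 in controls.

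Airn was most like Sgo2a (0.970), Pbx2 (0.966) and Fam110c (0.965), and Pbx2 also lies on chromosome 17. Tedc2 was most like Zfp874a (0.998), Htr3a (0.983) and Prxl2c (0.974). Zfp874a, a zinc finger gene of chromosome 13, read 6.21, 6.16 and 6.29 in mutants, against 8.17, 8.51 and 8.76 in controls. Both genes had mutants that were nearly level and controls in the same order. Values of r over 0.9 were reached by 89 genes with Tiam2, 62 with Tfb1m, 63 with Synj2, 52 with Airn and 80 with Tedc2.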

How the data were processed

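The deposited values are log2 signals for 204531 probe sets on 6 arrays, 1 column per array. Affymetrix Expression Console 1.1, RMA, Partek 6.4 and build mm9 stand in the submitters' processing notes, with no role given to any. Log2 signals of this kind usually understate differences of dim probe sets. Symbols came from the platform annotation and were updated through the RefSeq table of GRCm38.p6, which also gave gene order: of 16139 single symbols 13995 were current, 2104 were replaced by synonym and 40 were unmatched. Probe sets with several symbols (3488) or none listed (15779) were not named.

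Probe sets with a group mean of 3 or more (191663) were kept. Genes needed 2 of them (15045 genes), or 3 for exon usage (14310). Groups were compared with limma 3.58.1 in R 4.3.3 (lmFit, eBayes, diffSplice) over all features, Benjamini-Hochberg adjusted, threshold 0.05; the steps were tested on simulated data. The number of arrays, 3 per group, limits the precision. The members, lists and naming rule (the 5 genes, 5 measured neighbours on each side, up to 4 list members of smallest p, 3 most alike genes) were chosen with earlier results of these data known. Replicate numbers of mutants and controls did not pair: same-numbered deviations correlated at 0.10, -0.11 and 0.18. Alternatives were other signal minimums, normalizations, gene summaries and moderation, a replicate block and leaving out each array.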

Additional observations from a re-analysis of the deposited data

How the results depend on the processing

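Each of the 5 genes kept the sign of its difference under every alternative run. They were picked on this comparison and their groups did not overlap, so leaving out 1 array could hardly change a sign. The replicate block holds 1 mutant and 1 control per number, so it could not change a difference at all. Leaving out 1 array, the differences were -1.45 to -0.94 for Tiam2, 0.39 to 0.62 for Tfb1m, 0.82 to 1.02 for Synj2, -0.91 to -0.59 for Airn and -0.88 to -0.76 for Tedc2. Only Tiam2 moved by more than its spread between replicates: it was -1.86 with a signal minimum of 5 and -1.61 with the median over probe sets. The first leaves out its dim probe sets and keeps some through 1 group only, so its size is partly set by the filter. For the second the cause was not tested. Genes past the threshold numbered 1, and 0 with no signal minimum or the replicate block, 2 with arrays quantile normalized again or centred on their medians, and 0 to 3 without 1 array. Single probe sets past it numbered 0, then 2 with a minimum of 5, 7 with an intensity trend and 0 to 5 without 1 array (5 without control replicate 1). For exon usage 30 genes passed, 18 with the replicate block, 130 with the Simes adjustment and 13 to 58 without 1 array, with 58 without mutant replicate 2, 13 without control replicate 2 and 17 without control replicate 3; the cause was not tested. The block used numbers that did not pair the samples, and left the differences of the 5 genes as they were. The 17 brighter Tiam2 probe sets differed by -2.59 to -1.81 without 1 array (chosen after seeing the data). Signals near 3 carry little information on direction.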

Other observations

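Apart from the 5 genes, chromosome 17 did not stand out in counts of genes at an unadjusted p under 0.05 in limma. With the 5 counted, 38 of its 724 measured genes (5.25%) reached it, the 5 having been picked on this comparison. Of its 719 measured genes other than the 5, 33 reached it, 14 higher and 19 lower in mutants, which is 4.59%, against 4.21% of all genes and between 2.64% (chromosome 1) and 8.36% (chromosome 13) on the autosomes and chromosome X. None of the 719 passed over all genes, and the smallest adjusted p was 0.609. Between Tiam2 and Tedc2 in chromosome order, 104 genes were counted, with Tfb1m, Synj2 and Airn left out. Of the 104, 7 reached an unadjusted p under 0.05 (6.73%, against 4.21% of all genes), 2 higher and 5 lower. The groups were apart in 4 higher and 6 lower (9.62%, against 9.47% of all genes). In Tfb1m, Synj2 and Airn, which also lie there, the groups were apart too, so these shares understate the stretch.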
